A study of Mus musculus with 6 samples.

Results

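The 10 genes described here control the passage of a cell from G1 into S phase: the D-type cyclins Ccnd1, Ccnd2 and Ccnd3, the E-type cyclins Ccne1 and Ccne2, the cyclin-dependent kinases Cdk4, Cdk6 and Cdk2, and the kinase inhibitors Cdkn1a (p21) and Cdkn1b (p27). They were taken by name: every probe whose gene name in the array annotation equalled any of these symbols was used. This gave 17 of the 55681 non-control probes. The 10 genes are among 36163 gene and probe names on the array. RAW264.7, an established and proliferating mouse macrophage line derived from a virus-induced tumour, received AEPS, an Actinidia eriantha root polysaccharide (50 µg/ml, 4 h), or was left in DMEM medium alone for the same time. Each group held 3 samples of total RNA from the line, hybridised to 1-colour Agilent arrays. A single transformed line stands in for macrophages here, and no label states that replicates were grown apart. The p-values therefore reflect only how far these 6 samples scatter, and that scatter may be technical.

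In G1, D-type cyclins bind Cdk4 and Cdk6, and E-type cyclins bind Cdk2. Together these kinases phosphorylate the retinoblastoma protein, which then releases E2F transcription factors to switch on the genes of DNA replication. The inhibitors p21 and p27 bind the cyclin-kinase complexes. Both block Cdk2, and both can also help D-type cyclins assemble with their kinases. Normal macrophages grow in response to colony-stimulating factor 1 and are known to stop in G1 when they are activated by bacterial products.

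The authors' deposited value table, on a log2 scale, supplied the values below, and levels are compared only between samples for one probe, never between probes. A probe was tested where it stood well above background on the available scanner arrays of at least 1 group, as 16 of the 17 probes did. They covered 9 of the 10 genes, all except Ccne2. No probe of these genes was saturated. The scanner files gave only 2 distinct arrays per group, because the files of replicates 1 and 2 were identical in each group. Of 59305 spots, 55.4 to 58.7% stood well above background, and precision is set by the small number of arrays. Of 8 macrophage markers, 7 stood above background on all 4 distinct arrays, and Mrc1 did so on none. Of 20 markers of other cell types, 9 were above background on none and 7 on all 4, namely Cd3e, Cd79a, Col1a2, Pecam1, Kdr, Elane and S100a8. Of 9 genes listed as readouts of macrophage activation, 8 stood above background on all 4 arrays and rose, among them the cytokine genes Il1b by 8.13, Cxcl2 by 7.77 and Ifnb1 by 5.20 on the log2 scale (limma, adjusted p at most 0.05), the last by 3.13 with normexp background correction. The remaining one, Il6, entered the test only through the AEPS arrays, where it was high, so its direction was fixed by the filter.

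AEPS raised Ccnd2 about 4-fold and, by its brightest probe, the p21 gene Cdkn1a by 1.77-fold. Another Cdkn1a probe went the other way, by -0.48 on the log2 scale. The other genes of the group that passed the test were lower. Ccne1 fell by 2.49-fold, Cdkn1b by 1.74-fold, Ccnd3 by 1.57-fold, Ccnd1 by 1.54-fold, Cdk2 by 1.27-fold and Cdk4 by 1.20-fold. In all, 8 of the 9 tested genes passed (limma, Benjamini-Hochberg adjusted p under 0.05 over 22183 features), against 37.2% of all features. The 6 that fell compare with 18.3% of features called lower, and the 2 that rose with 18.9% called higher, so the number of rises was near the background. The same 8 genes had no overlap between the 3 control and the 3 AEPS samples, as did 50.4% of all features. Cdk6 did not pass. RNA was taken from whole cultures, so a lower level in every cell and fewer cells in a given phase of the cycle cannot be told apart.

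**Figure D1:**
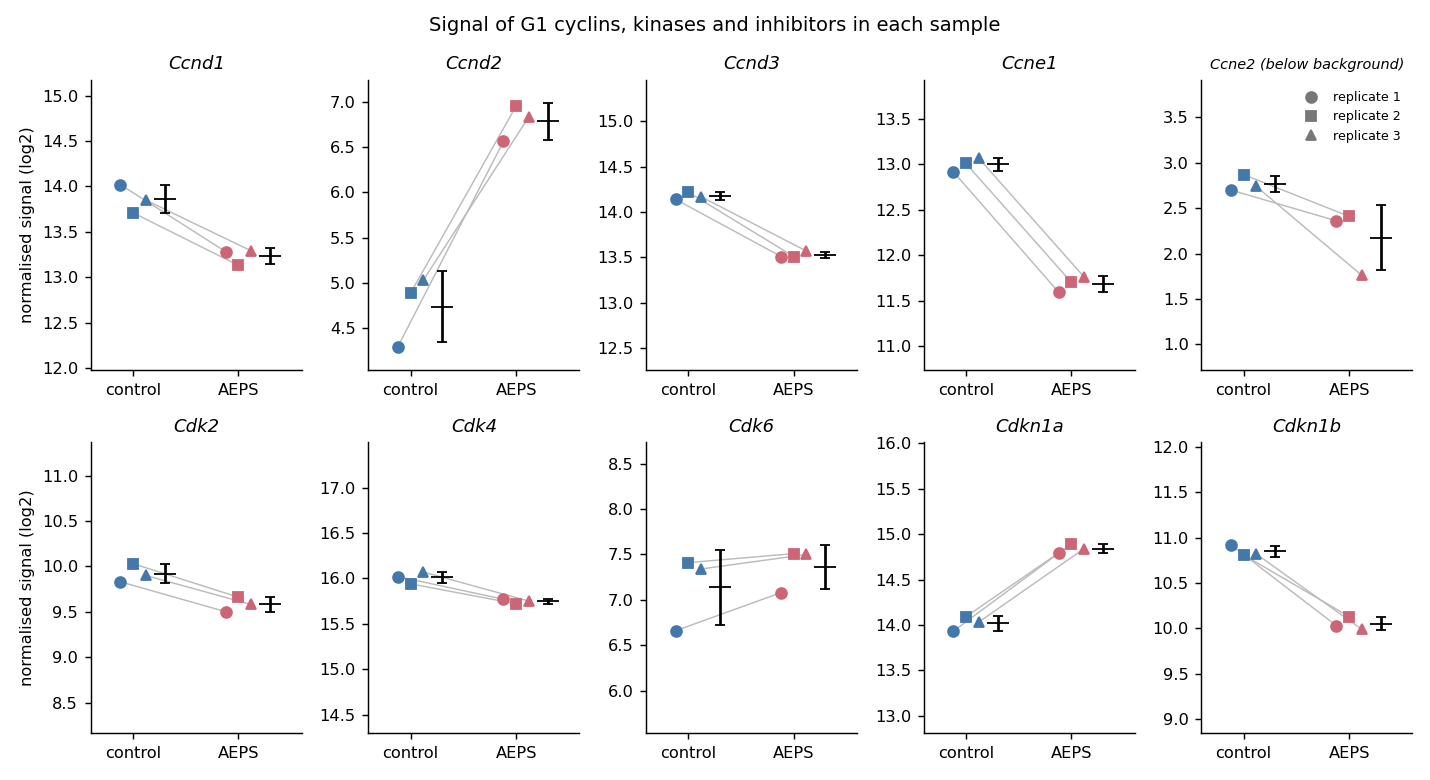
Log2 signal of each of the 10 genes in the 3 control and 3 AEPS samples, with 1 panel per gene, a line joining samples of the same replicate number, a bar for the mean ± SD of each group, and panels that span equal log2 ranges from different starting values. Control and AEPS samples do not overlap for 8 of the 9 tested genes, Cdk6 overlaps, and Ccne2 was not well above background on any scanner array.

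Among the D-type cyclins, Ccnd2 moved against its relatives. Its log2 signal was 4.30, 4.89 and 5.03 in control replicates 1, 2 and 3, and 6.56, 6.95 and 6.83 in AEPS replicates 1, 2 and 3. Every AEPS sample lay above every control, and control replicate 1 was the lowest of the 6. The change was 2.04 ± 0.22 (SE, n = 3 per group), a 4.11-fold rise with a 95% interval of 2.80 to 6.03, with an adjusted p of 0.00177 in limma. Only 1.16% of the tested features rose by more. Its probe was dim, though above background on all 4 distinct arrays, and the size of the rise depended on how background was treated: it was 1.96 from the scanner files scaled to the 75th percentile and 0.97 with normexp background correction (adjusted p = 0.0162 and 0.0422).

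Ccnd1, the cyclin most often induced by growth factor signalling, had a log2 signal of 14.02, 13.71 and 13.85 in the controls and 13.28, 13.13 and 13.29 with AEPS. All AEPS samples were lower. The change was -0.63 ± 0.10 (SE, n = 3 per group; limma adjusted p = 0.00692). Ccnd3, the D-type cyclin typical of blood cells, read 14.14, 14.22 and 14.17 in the controls and 13.51, 13.51 and 13.57 with AEPS, so that the groups lay well apart with little spread inside either. Its change was -0.65 ± 0.059 (adjusted p = 0.00107), and its other probe gave -0.78 ± 0.13 (adjusted p = 0.00887 over all probes). These falls depended on the scale. When the scanner files were scaled to the array's probes for spike-in RNAs, the median feature shifted by 0.43 where the table gave -0.06, and the changes of Ccnd1 and Ccnd3 became -0.10 and -0.09 (adjusted p = 0.830 and 0.746).

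A constant scaling of an array cancels in the difference between 2 probes on it. The difference can still depend on the background correction and on a normalization that varies with signal level, such as quantile normalization. Ccnd1 minus Ccnd2 was 9.72, 8.82 and 8.82 in the controls and 6.72, 6.18 and 6.46 with AEPS. The groups did not overlap, and the balance between the pair of cyclins moved by -2.67, or 6.35-fold. Ccnd2 minus Ccnd3 moved by 2.69, also without overlap. With normexp, an alternative added after the values were seen, the moves were -1.63 and 1.64. Ccnd1 minus Ccnd3 moved by only 0.02, with overlapping groups. An exact two-sided permutation test of 3 against 3 samples cannot go below p = 0.1. Both differences with Ccnd2 reached that value (permutation p = 0.175 after adjustment over the 7 pairs tested within a role), and Ccnd1 minus Ccnd3 gave an exact permutation p of 0.9.

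Ccne1, the E-type cyclin that activates Cdk2 at the start of S phase, had the largest fall of the 9 tested genes. Its log2 signal was 12.92, 13.01 and 13.07 in the controls and 11.59, 11.70 and 11.76 with AEPS. The gap between the groups was far wider than the spread within either. The change was -1.32 ± 0.077 (SE, n = 3 per group), a 2.49-fold fall with a 95% interval of 2.18 to 2.85 (limma adjusted p = 0.000295), and 1.79% of features fell by more. It stayed past the threshold in the scanner files under each scaling, at -1.41 with the 75th percentile, -1.40 with normexp and -0.80 with the spike-in RNAs (adjusted p = 0.0290, 0.00493 and 0.0419). Ccne1 was the only one of the 6 genes called lower to do so.

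The gene has a pair of probes that read separate stretches of the transcript. The starts of their sequences are shown because both gave the same fall in the table. Each line gives the leading 30 of 60 bases, from the array annotation, on the minus strand of chromosome 7 in mm9; the brighter probe is annotated to chr7:38882937-38882960, which covers 24 of its bases, and the dimmer to chr7:38885574-38885633.
Ccne1 brighter probe: gcatgtcctgccttcatgaactcttatttt
Ccne1 dimmer probe: ataaaaacacttttacagcttattgggatt
The dimmer probe changed by -1.31 ± 0.27 (adjusted p = 0.0149 over all probes). With normexp it changed by -0.85, where the brighter probe gave -1.40. In the table the difference between the probes moved by -0.01 (exact permutation p = 1, two-sided).

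Ccne2, the related E-type cyclin, was not well above background on any of the 4 distinct scanner arrays. The table listed 2.70, 2.87 and 2.74 in the controls and 2.36, 2.41 and 1.76 with AEPS. No fold is given for it.

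The kinases moved little. Cdk4, a partner of the D-type cyclins, read 16.02, 15.94 and 16.07 in the controls and 15.77, 15.72 and 15.75 with AEPS, a change of -0.26 ± 0.063 (SE, n = 3 per group; limma adjusted p = 0.0244). Its other probes gave -0.17 and -0.19 and did not pass (adjusted p = 0.117 and 0.0899 over all probes). Cdk2, the partner of E-type cyclins, read 9.83, 10.03 and 9.90 in the controls and 9.50, 9.66 and 9.58 with AEPS, a change of -0.34 ± 0.083 (adjusted p = 0.0254). Both sets of samples were separate, but by less than for the cyclins. Both calls rested on all 6 samples: Cdk2 passed only without control replicate 1 (adjusted p = 0.0334) and Cdk4 only without control replicate 2 (adjusted p = 0.0452), while leaving out any other sample raised the adjusted p to as much as 0.0785 and 0.0914. Each of them also turned to 0.30 above control under spike-in scaling, without passing (adjusted p = 0.257 for Cdk2 and 0.336 for Cdk4), below the median shift of 0.43.

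Cdk6, the other kinase for D-type cyclins, read 6.66, 7.41 and 7.34 in the controls and 7.08, 7.51 and 7.50 with AEPS. Control replicate 1 was low and the groups overlapped. The change was 0.23 ± 0.24, with a 95% interval of -0.38 to 0.83 (adjusted p = 0.511), and without control replicate 1 it was -0.01. Cdk2 minus Cdk6 moved by -0.57 with no overlap between groups (exact permutation p = 0.1, two-sided, the smallest possible), and Cdk2 minus Cdk4 by -0.08 (exact permutation p = 0.7). Cdk4 minus Cdk6 moved by -0.49 (exact permutation p = 0.2).

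By their brightest probes, the 2 inhibitors moved in opposite directions. The upstream probe of Cdkn1a, described below, changed by -0.48 (limma adjusted p = 0.0326 over all probes). With the mean of the gene's probes Cdkn1a did not pass (limma adjusted p = 0.210). Cdkn1a, which is induced by p53 and by several other signals, read 13.93, 14.09 and 14.03 in the controls and 14.79, 14.89 and 14.84 with AEPS, from a probe spotted 10 times on each array. The values were tight within each group. The change was 0.82 ± 0.071 (SE, n = 3 per group), a 1.77-fold rise with a 95% interval of 1.57 to 2.0 (limma adjusted p = 0.000897). Cdkn1b, whose protein is high in resting cells, read 10.92, 10.81 and 10.82 in the controls and 10.03, 10.13 and 9.99 with AEPS, a change of -0.80 ± 0.071 (adjusted p = 0.000967), and no AEPS sample reached a control. Its other, dimmer probe gave -0.54 ± 0.14 (adjusted p = 0.0340 over all probes), a value that depended on background treatment: it was -0.90 in the scanner files at the 75th percentile and -0.17 with normexp. Under spike-in scaling Cdkn1a rose by 1.43 (adjusted p = 0.0246) and Cdkn1b read -0.19 (adjusted p = 0.577).

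Within each array, Cdkn1a minus Cdkn1b was 3.01, 3.28 and 3.21 in the controls and 4.76, 4.76 and 4.85 with AEPS. The balance between the inhibitors thus moved by 1.62, or 3.08-fold, with a gap far wider than the spread in either group, and the exact two-sided permutation p was 0.1, the smallest possible. With the mean of each gene's probes in place of the brightest it moved by 0.94.

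**Figure D2:**
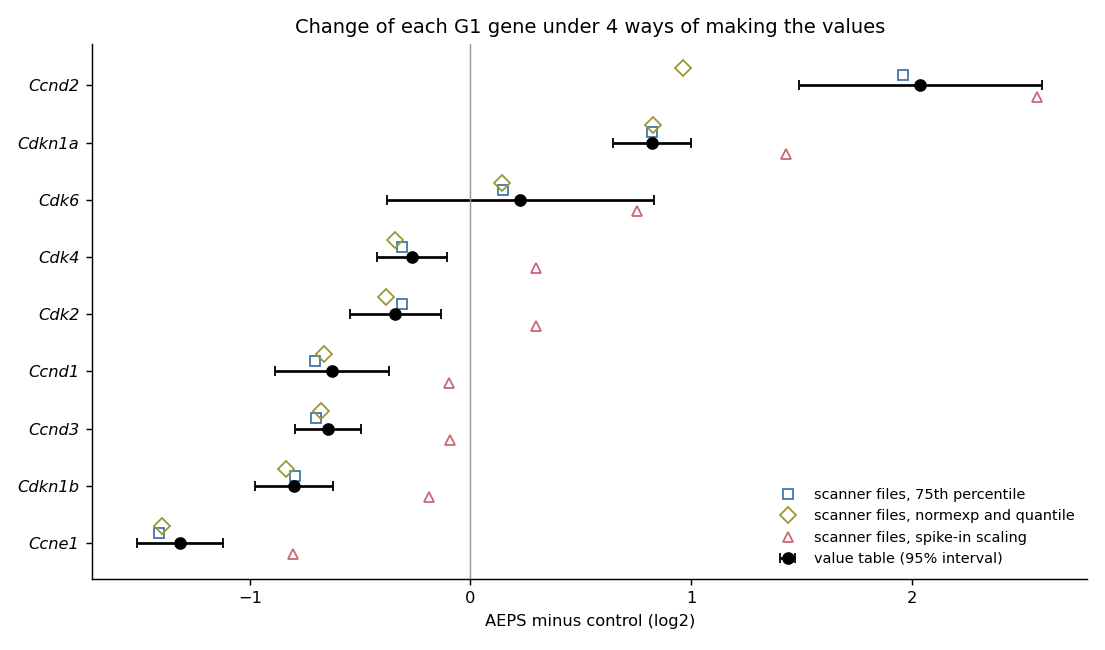
AEPS minus control on the log2 scale for the 9 tested genes under 4 ways of making the values: the authors' table (with its 95% interval), and the scanner files scaled to the 75th percentile, corrected by normexp, or scaled to the spike-in RNAs. Ccnd2 and Cdkn1a lie above 0 and Ccne1 well below 0 under all 4, while Cdk2 and Cdk4 lie on either side of 0 depending on the scale.

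How many of the 9 genes were called varied with the source of the values, as did the share of all features. With the replicate number as a block in the table, 2 were called higher and 6 lower, against 25.3 and 28.2% of features and 53.5% in all. With the scanner files at the 75th percentile, Ccnd2 was called higher and Ccne1 and Cdkn1b lower, against 5.81 and 4.48% of features and 10.3% in all. With the slide as a block in the same files, 2 were called higher and 4 lower, against 16.2 and 21.1% and 37.3% in all. With normexp, Ccnd2 and Cdkn1a were called higher and Ccnd3, Ccne1 and Cdkn1b lower, against 8.66 and 7.91% and 16.6% in all. With spike-in scaling, Ccnd2 and Cdkn1a were called higher and Ccne1 lower, against 21.2 and 0.847% and 22.1% in all.

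The probes of Cdkn1a did not move together. Starts of all 3 are shown, the leading 30 of 60 bases each, on the plus strand of chromosome 17. They lie at different positions along the gene, and in the table the upstream probe moved against the main one. In mm9 the main probe lies at chr17:29237377-29237436, the middle one at chr17:29235299-29235358 and the upstream one, 9391 bases before the main probe, at chr17:29227986-29228045.
Cdkn1a main probe: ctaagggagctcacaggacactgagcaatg
Cdkn1a middle probe: tggggtagtttccatagtgacccgggtcct
Cdkn1a upstream probe: aatggagacagagaccccagataattaagg
The main probe is annotated to NM_007669, the middle one to ENSMUST00000122348 and the upstream one to NM_001111099, another transcript of the gene.

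The upstream probe read 8.01, 7.98 and 8.12 in the controls and 7.32, 7.65 and 7.71 with AEPS, lower in every AEPS sample, with a change of -0.48 ± 0.12 (SE, n = 3 per group; adjusted p = 0.0326 in limma over all probes, of which 34.9% passed). The middle probe read 4.51, 5.20 and 5.38 in the controls and 5.07, 5.66 and 5.73 with AEPS, with overlap. Its change of 0.46 ± 0.29 did not pass (limma adjusted p = 0.282) and was 0.20 with normexp. Main minus upstream probe was 5.92, 6.11 and 5.91 in the controls and 7.47, 7.24 and 7.13 with AEPS. This difference, a comparison chosen after the values were seen, moved by 1.30, or 2.46-fold, in the table and by 1.37 in the scanner files, with no overlap (exact permutation p = 0.1, two-sided, the smallest possible). Main minus middle probe, compared in the same way, moved by 0.37 with overlapping groups (exact permutation p = 0.3, two-sided). Among 5585 genes with several tested probes, 73 (1.31%) had a probe called higher and another called lower. The sign of the upstream probe alone depended on scale, at -0.55 with the 75th percentile, -0.41 with normexp and 0.06 with spike-in scaling. Averaging the 3 probes gave 0.27 for the gene and ended its call (adjusted p = 0.210).

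**Figure D3:**
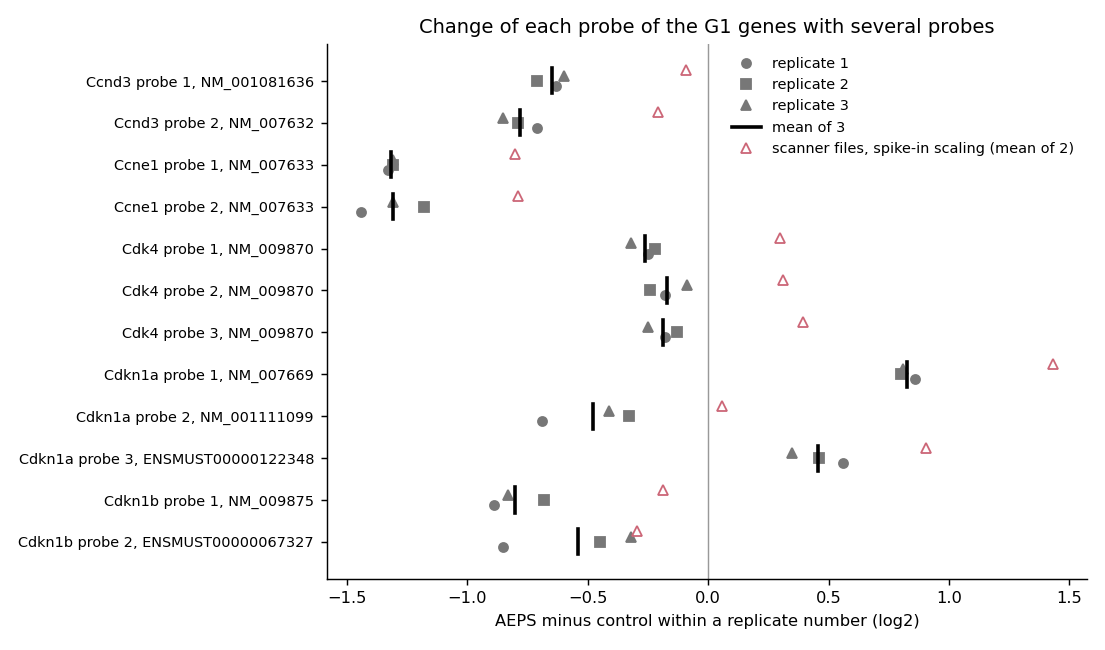
AEPS minus control on the log2 scale for each probe of the 5 genes with several tested probes, with filled symbols for the 3 replicate numbers, a bar for their mean, and an open triangle for the spike-in scaled scanner files. In the table the Ccne1 probes coincide, at -1.32 and -1.31, while the Cdkn1a probes lie at 0.82, 0.46 and -0.48.

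Cdkn1a also has 2 RefSeq start sites, 2790 bases apart, whose promoter windows are shown because its probes diverged. Windows run from 250 bases before to 50 after a start, on the plus strand of GRCm38.p6, a different build from that of the probe positions. The upstream window is chr17:29090729-29091028 and the downstream one chr17:29093519-29093818. Capitals mark CATG and CATG with 6 bases between them, the core of a pair of p53 half-sites, a word that was added to the search after earlier values were seen.
Cdkn1a upstream window: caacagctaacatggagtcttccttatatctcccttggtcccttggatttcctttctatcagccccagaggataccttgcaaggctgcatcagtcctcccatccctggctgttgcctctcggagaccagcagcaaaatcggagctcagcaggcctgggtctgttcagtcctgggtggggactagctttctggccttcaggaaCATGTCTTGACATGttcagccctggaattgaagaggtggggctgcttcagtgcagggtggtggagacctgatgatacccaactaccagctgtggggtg
Cdkn1a downstream window: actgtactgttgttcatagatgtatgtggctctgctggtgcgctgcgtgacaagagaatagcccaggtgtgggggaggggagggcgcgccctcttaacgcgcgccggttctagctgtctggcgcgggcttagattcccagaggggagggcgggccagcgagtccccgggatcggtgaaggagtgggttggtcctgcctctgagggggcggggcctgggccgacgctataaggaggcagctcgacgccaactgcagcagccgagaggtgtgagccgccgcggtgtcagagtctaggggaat
The upstream window held the word once, starting at -48 from the start site, and the downstream window did not. Of all 32851 windows in the RefSeq table, 0.712% held it. Neither window was matched to a probe, so the probes are not assigned to start sites here.

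RefSeq windows were at hand for 7 of the 10 genes, 9 windows in all, and none was listed for Ccnd1, Ccnd2 or Ccne2. Both strands were searched. The E2F word TTTCCCGC occurred in the Cdk2 window alone, against 1.07% of all windows. TTTGGCGC, the AP-1 word TGACTCA and the cyclic AMP response word TGACGTCA occurred in none of the 9, against 0.514, 5.2 and 1.79% of all windows. GGGCGGG, bound by Sp1, occurred in 6 of 9 against 25.6%. The loose NF-kB word, GGG and CC with 5 bases between them, can overlap it and occurred in 8 of 9 against 50.8%. Ccnd3 and Cdkn1a each supplied a pair of the 9 windows. G and C made up 54.7 to 76.0% of these windows, and the shares over all windows were not matched for this.

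The window of Cdk4 is shown because it held the E-box CACGTG, the word bound by Myc and its partners, 4 times, starting at -172, -118, -98 and -11. Capitals mark it in chr10:127063285-127063584, plus strand, GRCm38.p6.
Cdk4 window: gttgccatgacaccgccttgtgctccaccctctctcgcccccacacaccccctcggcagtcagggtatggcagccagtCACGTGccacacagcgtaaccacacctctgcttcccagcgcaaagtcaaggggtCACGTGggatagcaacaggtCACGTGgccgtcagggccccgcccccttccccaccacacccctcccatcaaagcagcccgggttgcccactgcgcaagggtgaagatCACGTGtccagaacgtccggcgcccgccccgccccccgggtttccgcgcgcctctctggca
Cdk6 held it once, and 7.15% of all windows held it at least once. Of the 32851 windows, 8 (0.0244%) held 4 or more. This cut equals the count in the Cdk4 window and was not planned, so the share is no test of rarity. In these samples Myc rose by 2.72 (limma adjusted p = 2.19e-05) and Cdk4 changed by -0.26. Under spike-in scaling the changes were 3.47 and 0.30, and that of Cdk4 did not pass. A link between Myc and Cdk4 was not tested.

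The genes most like the extremes of the group were found by the root mean square distance between 6 centred log2 values, over 12627 named genes. Closest to Ccnd2 were Xirp1, an actin-binding protein gene of muscle (distance 0.0418, change 2.09), the water and glycerol channel Aqp3 (0.0772, 2.03) and Shbg, which encodes a steroid-binding globulin (0.0822, 1.97). Their probes were dim as well, with control means of 5.93, 4.85 and 5.47. The size of such changes can depend on how background is treated. Closest to Ccne1 were the transporter Slc37a2 (0.0243, -1.28) and Rab40c (0.0294, -1.28).

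Of 6 other CDK inhibitors listed, 3 stood above background. Of these, 2 fell and none rose, with a median of -0.76 against -0.06 for all features. For this and the lists that follow, the shares of all features were 18.3% lower and 18.9% higher, 28.2 and 25.3% with the replicate block, and 0.847 and 21.2% with spike-in scaling. They were 4.48 and 5.81% with the 75th percentile of the scanner files, and 7.91 and 8.66% with normexp. Of this list, 1 gene fell with the 75th percentile and 2 with normexp, and none rose. Cdkn2c (p18), an inhibitor of Cdk4 and Cdk6, went from 10.60 ± 0.144 to 9.73 ± 0.0404 (SD, n = 3), a change of -0.87 (limma adjusted p = 0.00156). Cdkn2d (p19), of the same family, changed by -0.76 (adjusted p = 0.00254). Cdkn3, a phosphatase that acts on kinases, read -0.04 and did not pass (adjusted p = 0.690). Cdkn1c, Cdkn2a and Cdkn2b were not above background. Under spike-in scaling Cdkn2c and Cdkn2d stayed below 0, at -0.32 and -0.15, without passing (adjusted p = 0.438 and 0.575).

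Among 13 retinoblastoma and E2F proteins, the targets of the G1 kinases, 5 fell (18.3% of all features) and 2 rose (18.9%), with a median of -0.11, so the rises were near the background. The activator E2f2 fell from 12.67 ± 0.0379 to 10.73 ± 0.117 (SD, n = 3), by 1.94 on the log2 scale (limma adjusted p = 0.00012), and stayed past the threshold under spike-in scaling, at -1.47 (adjusted p = 0.0255). E2f7, a repressor, and E2f1, an activator, changed by -1.07 and -0.97, and read -0.48 and -0.40 without passing on the spike-in scale (adjusted p = 0.112 and 0.186). The activator E2f3 rose by 0.42 and E2f5, which works with retinoblastoma relatives as a repressor, by 0.98. Their dimerisation partner Tfdp1 read 0.35 and did not pass (adjusted p = 0.0722; 0.0104 with the replicate number as a block). With that block 4 of the list rose and 6 fell, and with spike-in scaling 4 rose and 1 fell, the median being 0.31. At the 75th percentile none rose and 3 fell, and with normexp 1 rose and 4 fell.

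Of 30 E2F target genes of S phase, 12 fell (18.3% of all features) and 3 rose (18.9%), with a median of -0.15. The rises numbered 1 without control replicate 1, AEPS replicate 2 or AEPS replicate 3. The replication licensing genes Cdc6 and Cdt1 changed by -1.39 and -0.90 and the thymidine kinase gene Tk1 by -1.32, while the helicase genes Cdc45 and Mcm4 rose by 0.47 and 0.25 and the histone mRNA-binding gene Slbp by 0.37. Mcm6 read -0.14 (limma adjusted p = 0.213). No gene of the list rose with the 75th percentile, where 6 fell, or with normexp, where 10 fell. With the replicate block 6 rose and 15 fell, and with spike-in scaling 3 rose and none fell, the median being 0.38. Cdc6 and Tk1 were still at -0.80 and -0.84 on that scale (adjusted p = 0.0663 and 0.0546).

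G2 and mitosis genes, 25 tested of 26, gave 8 falls (18.3% of all features) and 4 rises (18.9%), with a median of -0.06, the same as for all features. The rises, near the background share, numbered 1 without control replicate 2 or AEPS replicate 2 and 2 without AEPS replicate 3. The cyclin gene Ccnf, the mitotic kinase gene Plk1 and the transcription factor gene Foxm1 changed by -0.77, -0.73 and -0.54. The checkpoint kinase genes Ttk, from a dim probe, and Bub1 rose by 0.95 (0.42 with normexp) and 0.37 and the topoisomerase gene Top2a by 0.73. Birc5 read -0.17 (adjusted p = 0.0711; 0.0410 with the replicate block). With spike-in scaling 6 of the list rose and none fell, and Foxm1 read 0.08. At the 75th percentile 1 rose and 2 fell, and normexp gave 1 rise and 5 falls.

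Genes of CDK activation, ubiquitin ligases and assembly, 18 tested of 21, gave 6 rises (18.9% of all features) and 3 falls (18.3%), with a median of 0.13. The falls were near the background share, and the rises numbered 3 without AEPS replicate 2. Cdk7, the catalytic part of the CDK-activating kinase, rose from 8.78 ± 0.0929 to 10.02 ± 0.0757 (SD, n = 3), by 1.24 (limma adjusted p = 0.000361). The ubiquitin ligase scaffold Cul1 and the cyclin Ccnc rose by 0.67 and 0.58. Fbxo31, a ligase subunit reported to target cyclin D1, Wee1, an inhibitory kinase, and Cdk5 changed by -1.05, -0.82 and -0.51; under spike-in scaling none of the list was called lower and Cdk5 read 0.19. Cdc37, a chaperone that helps fold Cdk4, read 0.02 (adjusted p = 0.848). The list held 1 rise and 2 falls with the 75th percentile, and 2 rises and 2 falls with normexp.

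Regulators upstream of cyclin D and p27, 31 tested of 32, gave 18 falls (18.3% of all features) and 10 rises (18.9%), with a median of -0.34. Myc, a growth-promoting transcription factor, rose from 9.49 ± 0.0200 to 12.21 ± 0.0100 (SD, n = 3; limma), Stat5a, a cytokine-activated factor, rose by 2.15, and the NF-kB gene Nfkb1 by 1.5. The differentiation regulators Id2 and Cebpa changed by -1.92 and -1.58, and the antiproliferative gene Tob1 by -1.29. With spike-in scaling 12 rose (21.2% of all features) and 2 fell (0.847%), Id2 and Cebpa being the falls (-1.40 and -1.02). At the 75th percentile 6 rose and 6 fell, and with normexp 9 rose and 9 fell.

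p53 and its targets other than Cdkn1a, 19 tested of 22, gave 9 rises (18.9% of all features) and 4 falls (18.3%, near the share in the list), with a median of -0.06. Gadd45a, a stress gene, rose from 6.85 ± 0.216 to 10.96 ± 0.0173 (SD, n = 3), by 4.11. The death receptor gene Fas rose by 2.68 and the pro-apoptotic gene Bax by 0.92. Sesn1, Phlda3 and the phosphatase gene Ppm1d changed by -1.45, -0.98 and -0.59. Bbc3 read -0.19 (limma adjusted p = 0.0557; 0.0299 with the replicate block). The list therefore held changes in both directions, and under spike-in scaling 8 rose and none fell, with Ppm1d at 0.03. It held 4 rises and 1 fall with the 75th percentile, and 5 rises and 3 falls with normexp.

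**Figure D4:**
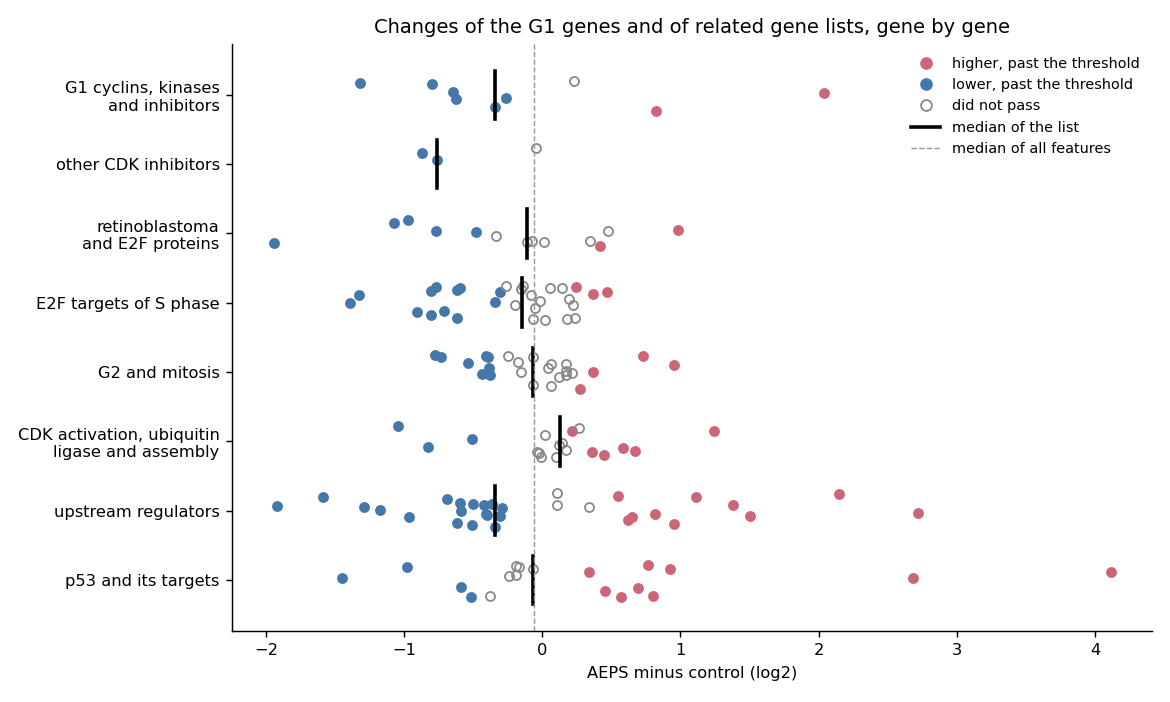
AEPS minus control on the log2 scale for each tested gene of the G1 group and of 7 related lists, filled where the adjusted p was under 0.05, with a bar at each list's median and a dashed line at -0.06, the median of all features. The inhibitor list has its median at -0.76, the upstream regulators spread from -1.92 to 2.72, and the G2 and mitosis genes centre on the dashed line.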

How the data were processed

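Cy3-labelled cRNA was made from total RNA, per the labels' protocols, and scans were quantified in Agilent Feature Extraction 10.7.1.1, per the file headers. The deposited scanner files give spot intensity. The authors' deposited table gives values on a log2 scale, whose sorted columns differ by at most 0.01, as after quantile normalization. The sources used here do not give its log offset. Scanner files of replicates 1 and 2 were identical in each group and were counted as 1 array. The table's columns for replicate 2 matched the scanner files labelled replicate 3, so the replicate labels of the 2 sources conflict. No scanner file matched the table's columns for replicate 3.

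The table was fitted with limma 3.58.1 (R 4.3.3) without covariates. A probe was tested where flagged well above background on every distinct scanner array of at least 1 group, the brightest probe stood for a gene, and p-values were adjusted by Benjamini-Hochberg over 22183 features at 0.05. Alternatives used the scanner files scaled to the 75th percentile, to spike-in probes or by normexp with an offset of 50, a replicate block, other filters, probe means and each sample left out.

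Same-numbered samples departed from their group means together (correlations of 0.561, 0.367 and 0.418, against -0.489 to 0.220 for other pairs). Such departures cancel within a group, which in part pushes the other correlations down. Slides were taken from the scanner array that a column of the table matched. On that basis same-numbered samples of both groups shared a slide: slide 2 for replicate 1 and slide 1 for replicate 2. By the labels of the scanner files, replicate 2 would lie on slide 2. This pairing entered the tests only through the fits with a block. The main fit and the permutation tests treated the samples as unpaired. Data of 22183 features were also simulated with independent noise and only 100 changes of each size. There 48% of changes of log2 1 and 80% of changes of log2 2 were recovered, with 8 false calls. In the real samples 37.2% of features were called and same-numbered samples varied together, so these figures are not the recovery or error rate of the results above.

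The genes and lists were chosen with earlier results of these data known. From each list the 3 largest called changes each way and the brightest gene that did not pass are named, and lists of up to 6 genes in full; 2 genes that the naming rules take are not reported here. Ccne1 minus Ccne2 was planned but not run, since Ccne2 was dim.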

Additional observations from a re-analysis of the deposited data

How the results depend on the processing

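Ccnd1, Ccnd2, Ccnd3, Ccne1, Cdkn1a and Cdkn1b stayed past the threshold in all 6 runs that left out a sample, Cdk2 and Cdk4 in 1 run each, and Cdk6 in none. Over those runs 2 genes of the group were called higher and 4 to 5 lower, and 5726 to 7249 features were called. The replicate block changed no call among the 9 genes, 2 being higher and 6 lower, and called 11874 features where the fit without it called 8241. The scanner files, with 2 arrays per group, called fewer features: 2282 with the 75th percentile, 3674 with normexp and 4901 with spike-in scaling. They called 1, 2 and 2 genes of the group higher and 2, 3 and 1 lower. Averaging a gene's probes left 1 gene called higher, Ccnd2. Cdk2 and Cdk4 reversed under spike-in scaling, both to 0.30; there 96.2% of all calls were higher, against 50.8% in the table. With no filter on dim probes Cdk2 missed the threshold (adjusted p = 0.0518). Of 272 counts of list genes under the alternatives, 232 lay within 1.5 times the value in the table and 40 beyond it. Among the alternatives was centring each column of the table at its 75th percentile. It could not move a count, since the sorted columns differ by at most 0.01, so its agreement was fixed in advance. Background limits Ccne2 and the size of changes read from dim probes, among them Ccnd2, Ttk, Ifnb1 and the dimmer probes of Ccne1 and Cdkn1b.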
